A study of Mus musculus with 2 samples.

Results

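The TNF superfamily ligands and receptors were the gene symbols that begin with Tnfsf or Tnfrsf followed by a digit, together with Cd40, Cd40lg, Fas, Fasl, Cd27, Lta, Ltb and Ltbr. In the deposited matrix of CD45+ cells from the dorsal root ganglia (DRG) of male mice, 38 of 16819 symbols met this rule, namely 14 ligands, 23 receptors and the antisense transcript Tnfsf13os. The founding member Tnf is not taken by the rule and is given beside the members only where its receptors or the same test are described. The cells came from naive WT BALB/cAnNRj mice, the ganglia of each preparation were pooled over spinal levels and digested, and live CD45+ cells were sorted and run in 1 lane of the 10x Genomics 3′ v3 assay. A hashtag antibody marked the cells of each mouse, the deposited matrix held cells of 3 male mice, and 1073 cells of 3 female mice were taken from a larger matrix of the same lane. All barcodes of the first matrix were also in the larger one, with 0 entries that differed. No treatment or genotype was compared. Apart from the tests between the sexes, the comparisons are between kinds of cells of the same mice, and the main tests did not pair these. Their p-values rest on the spread between the 3 mice of a group, and the tests between cell classes share an estimate of it over all classes.

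Ligands of this superfamily are mostly membrane proteins that act as trimers, some after being cut from the surface, and each binds one or a few receptors with cysteine-rich extracellular repeats. Receptors with a death domain can start apoptosis, while others bind TRAF adaptors and activate NF-κB through a canonical or an alternative route. In immune cells the family is known for the survival of B cells (BAFF), costimulation of T cells (4-1BB ligand, GITR, CD27), lymphoid tissue organisation (lymphotoxin), osteoclast and myeloid cell differentiation (RANK) and the control of inflammation (TNF).

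Cells were grouped by clustering from which all members were left out, with 74 genes omitted in total, so that no member's UMIs (unique molecular identifiers, 1 per captured transcript) decided where a cell went. Clusters were then named from marker lists, which gave 1489 macrophages, 107 monocytes, 100 dendritic cells (DCs), 565 neutrophils, 135 B cells and 139 T and NK cells of the male mice, and 2 clusters of 105 and 28 cells remained unnamed. Female cells took the class of the nearest male cells. The 9 macrophage markers, C1qa and Csf1r among them, made up 5.74 to 5.98% of the UMIs in macrophages and 0.0492 to 0.546% in the other classes, and the 9 B cell markers made up 2.59 to 2.95% in B cells and at most 0.0341% elsewhere. Monocyte markers were less selective, with 0.847 to 0.986% of UMIs in monocytes and 0.646 to 0.729% in neutrophils. Depth was 23403638 UMIs in all and a median of 8283.5 per cell, and it ranged from a median of 3209 in B cells to 13873.5 in DCs. Levels are given as CPM, UMI counts per 1e+06 UMIs after TMM scaling of the summed cells of each mouse, as mean ± SD of 3 male mice, and because capture differs between genes they are compared between cells, not between genes.

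Of the 38 members, 29 had at least 20 UMIs in the cells of the male mice and 14 of these had UMIs in each of the 6 classes. T and NK cells held the highest mean level for 10 of the 29 members, monocytes for 5, macrophages, B cells and neutrophils for 4 each, and DCs for 2. On total UMIs without TMM factors the counts were 11, 7 for monocytes, 4 for macrophages and B cells, 2 for neutrophils and 1 for DCs, since Tnfrsf1a and Tnfrsf23 moved from neutrophils to monocytes and Tnfsf8 from DCs to T and NK cells. For 20 of the 29 members (69.0%) the 3 mice of the highest class did not overlap those of the second, against 30.6% of the 12268 genes with as many UMIs, and as the classes were ordered by the same values this is a description. The other 9 members were Lta, Tnfrsf10b, Tnfrsf22, Tnfrsf4, Tnfrsf8, Tnfrsf9, Tnfsf13, Tnfsf15 and Tnfsf18, with 1 to 19 UMIs each. Tnfsf4, Tnfrsf11b and Cd70 were not analysed here. On chromosome 11 Tnfsf12 and Tnfsf13 both overlap the read-through gene Tnfsfm13 and the transcript Tnfsf13os, so how reads were divided among them is uncertain, for the abundant Tnfsf12 too.

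**Figure D1:**
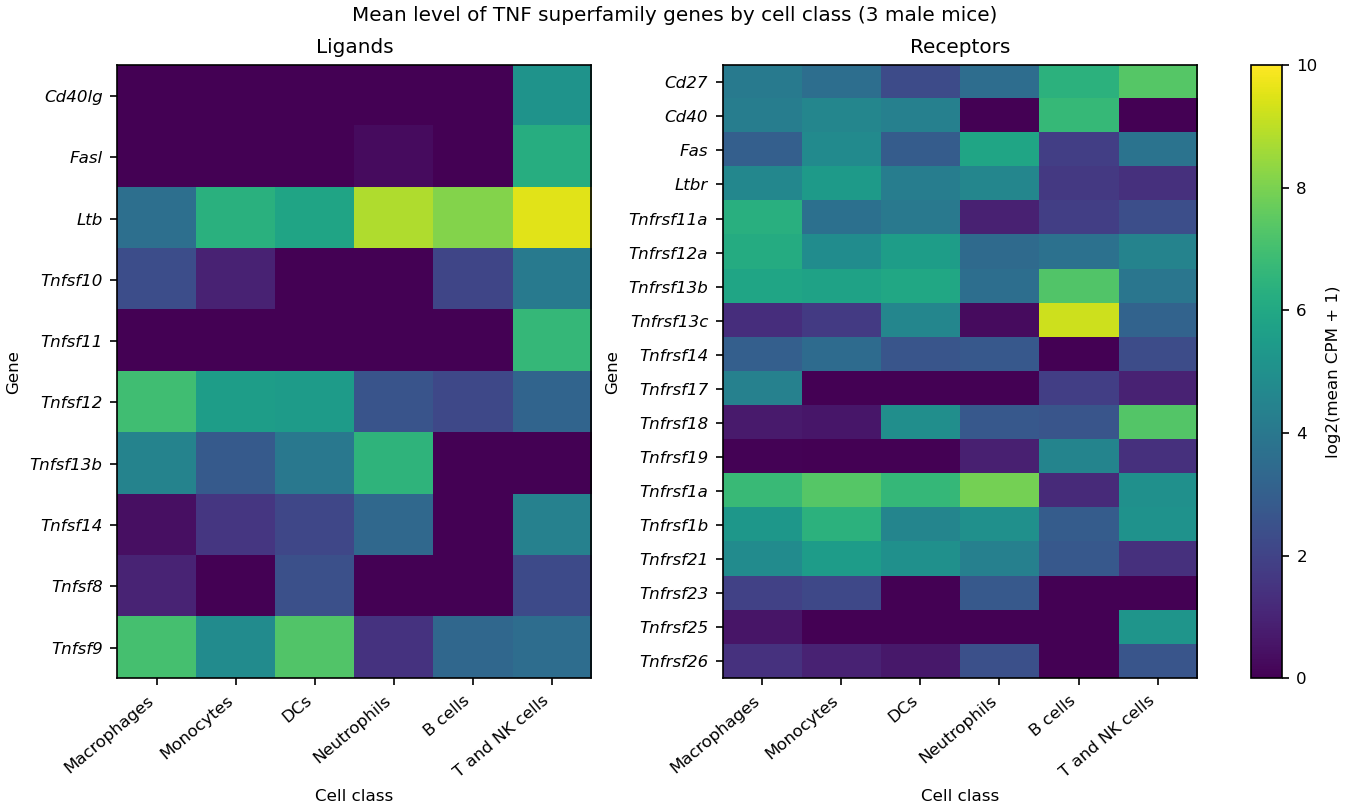
Heat map of log2(mean CPM + 1) over 3 male mice for the ligands (left) and receptors (right) with at least 20 UMIs, in macrophages, monocytes, DCs, neutrophils, B cells and T and NK cells. Tnfrsf13c was brightest in B cells (605 CPM), Ltb in T and NK cells (757 CPM) and Tnfsf12 in macrophages (122 CPM).

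These promoter sequences are shown because the levels of these ligands differed between myeloid cells, Ltb between neutrophils and macrophages and Tnfsf13b between macrophage subsets. The windows are from RefSeq on GRCm38.p6 and run from 250 bases before a start site to 50 after it, and 30 of the 38 members had such an entry. Capitals mark a match in each, the κB letters GGG and TTTCC with any 2 bases between them, on the reverse strand for Ltb (chr17:35194257-35194556, + strand), ending 78 bases before the start, and the AP-1 letters TGANTCA for Tnfsf13b (chr8:10006383-10006682, + strand, 1 of 2 start sites listed), ending 121 bases before it.
Ltb: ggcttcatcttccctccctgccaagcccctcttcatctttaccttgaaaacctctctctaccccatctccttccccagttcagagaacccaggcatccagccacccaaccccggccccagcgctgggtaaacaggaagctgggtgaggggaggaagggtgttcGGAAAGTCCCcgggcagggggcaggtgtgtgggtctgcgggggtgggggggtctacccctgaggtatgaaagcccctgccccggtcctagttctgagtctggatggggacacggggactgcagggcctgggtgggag
Tnfsf13b: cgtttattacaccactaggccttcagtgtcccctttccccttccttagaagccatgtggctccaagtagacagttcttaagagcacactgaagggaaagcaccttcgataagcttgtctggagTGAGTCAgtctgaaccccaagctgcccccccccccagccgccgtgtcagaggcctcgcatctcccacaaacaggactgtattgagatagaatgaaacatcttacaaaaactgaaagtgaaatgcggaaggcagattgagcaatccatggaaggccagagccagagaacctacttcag
Both strands were searched, and these windows were chosen after the matches were seen. The other listed start site of Tnfsf13b is where the annotated gene begins. Relative to that site, the same AP-1 match ends 45 bases after the start and not before it. The κB letters were found in 1.63% of all 32851 promoters and in those of 3 members (Ltb, Tnfrsf25 and Tnfrsf9), and the AP-1 letters in 7.81% of all and in those of 6 members (Fas, Tnfrsf8, Tnfrsf9, Tnfsf13, Tnfsf13b and Tnfsf14). The letters of an interferon response element, GAAA repeated after any 2 bases, were in 3.44% of all promoters and in those of 4 members (Tnfrsf14, Tnfrsf17, Tnfrsf1b and Tnfsf13b), and TATAAA in 13.6% of all and in those of 5 members (Lta, Tnfrsf17, Tnfrsf23, Tnfsf11 and Tnfsf18). A match is a description of the letters and not a bound site.

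Macrophages were divided by their own UMIs of Fcrls, a gene of resident macrophages, and Ccr2, the receptor that takes monocytes out of the blood. Cells with Fcrls and without Ccr2 (Fcrls+Ccr2-, 670 cells) were 44.6% ± 5.06 (SD, n = 3 mice) of the macrophages, cells with both were 38.2% ± 3.19 (578 cells), cells with Ccr2 alone (Fcrls-Ccr2+, 164 cells) were 11.4% ± 1.74, and cells with neither were 5.89% ± 1.93 (77 cells). A gate by the presence of a UMI is a range and not a cell type. Of the 670 Fcrls+Ccr2- cells 52 had only 1 Fcrls UMI, and of the 164 Fcrls-Ccr2+ cells 22 had only 1 Ccr2 UMI. Fcrls+Ccr2- macrophages had lower levels of the ligands Tnfsf9 and Tnfsf13b and of the receptor Tnfrsf12a than Fcrls-Ccr2+ macrophages, and no member was higher. Sums per mouse were compared by edgeR's quasi-likelihood test, and every adjusted p below is its Benjamini-Hochberg value. Here 11 members passed the filter on low counts, of which 3 were lower and 0 higher, against 10.3% of all 5848 genes tested (4.55% higher and 5.75% lower). The median log2 fold change was 0.02 over these 11 members and 0.01 over all genes tested.

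Tnfsf9 encodes 4-1BB ligand, a costimulator of T cells (chr17:57105325-57107757, + strand, GRCm38). Its level was 80.4, 62.2 and 55.3 CPM in the Fcrls+Ccr2- macrophages of male mice 1, 2 and 3 and 492, 302 and 187 CPM in their Fcrls-Ccr2+ macrophages, from 353 and 325 UMIs. Each of the 3 Ccr2 samples lay above all Fcrls samples, although the Ccr2 samples spread widely (327 ± 154 against 65.9 ± 12.9 CPM). The log2 fold change was -2.23 (SE 0.38, adjusted p = 0.0158, lower in 3 of 3 mice). This call was lost without mouse 2 (log2 fold change -2.22, adjusted p = 0.215) and when the subsets were taken as whole clusters in place of gates (-1.66, adjusted p = 0.0791).

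Tnfsf13b encodes BAFF, the survival factor of B cells (chr8:10006467-10039072, + strand). The promoter window printed above belongs to a listed start site that lies inside these coordinates. The Fcrls+Ccr2- macrophages of the 3 mice had 12.1, 12.95 and 13.8 CPM and the Fcrls-Ccr2+ macrophages 57.2, 49.9 and 38.4 CPM, from 78 and 55 UMIs. The groups did not overlap, and the log2 fold change was -1.74 (SE 0.28, adjusted p = 0.000152), or -0.88 (adjusted p = 0.0115) with subsets taken as whole clusters. Tnfsf13b passed the filter on low counts only with the Fcrls-Ccr2+ samples, where it is high, so its call is a description and no support. The annotated gene Gm44789 overlaps this gene on the opposite strand.

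Tnfrsf12a encodes Fn14, the receptor for TWEAK (chr17:23675445-23677468, - strand). It stood at 47.0, 42.5 and 40.9 CPM in Fcrls+Ccr2- and at 120, 96.9 and 90.6 CPM in Fcrls-Ccr2+ macrophages, again without overlap. The log2 fold change was -1.19 (SE 0.19, adjusted p = 0.000139). Tnf, which is no member, went the same way, with 139, 139 and 120 CPM against 292, 388 and 272 CPM (log2 fold change -1.25, SE 0.15, adjusted p = 5.63e-06). The gate with both genes lay between these 2 gates for the 4 genes, at mean levels of 128 CPM for Tnfsf9, 18.4 for Tnfsf13b, 73.4 for Tnfrsf12a and 167 for Tnf.

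The other 8 members tested were not called between the subsets. Cd40 and Ltb did not pass the filter of the main test. Cd40 was called lower in Fcrls+Ccr2- cells with every gene with a UMI (log2 fold change -1.26, adjusted p = 0.0213). It was also called without mouse 1 (-1.64, adjusted p = 0.033) and with the gate on thinned cells (-1.4, adjusted p = 0.0121). Ltb was called lower with finer clusters (-1.45, adjusted p = 0.00565). The ligand Tnfsf12 (TWEAK) had 116 ± 4.50 and 112 ± 7.85 CPM in Fcrls+Ccr2- and Fcrls-Ccr2+ macrophages (log2 fold change 0.02, SE 0.16, adjusted p = 1). Values for the TNF receptors were 0.005 (SE 0.17) for Tnfrsf1a and -0.13 (SE 0.23) for Tnfrsf1b on the log2 scale. Tnfrsf11a, which encodes RANK, had a log2 fold change of 0.29 (SE 0.22, adjusted p = 0.496), Tnfrsf13b (TACI) one of 0.23 (SE 0.23), Ltbr (the lymphotoxin β receptor) one of 0.32 (SE 0.32) and Tnfrsf21 (death receptor 6) one of 0.02 (SE 0.29). The widest interval was that of Tnfrsf17, with 37.9, 28.5 and 17.2 CPM against 22.9, 20.6 and 4.12 CPM (log2 fold change 1.09, SE 0.54, adjusted p = 0.265), where the groups overlapped.

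**Figure D2:**
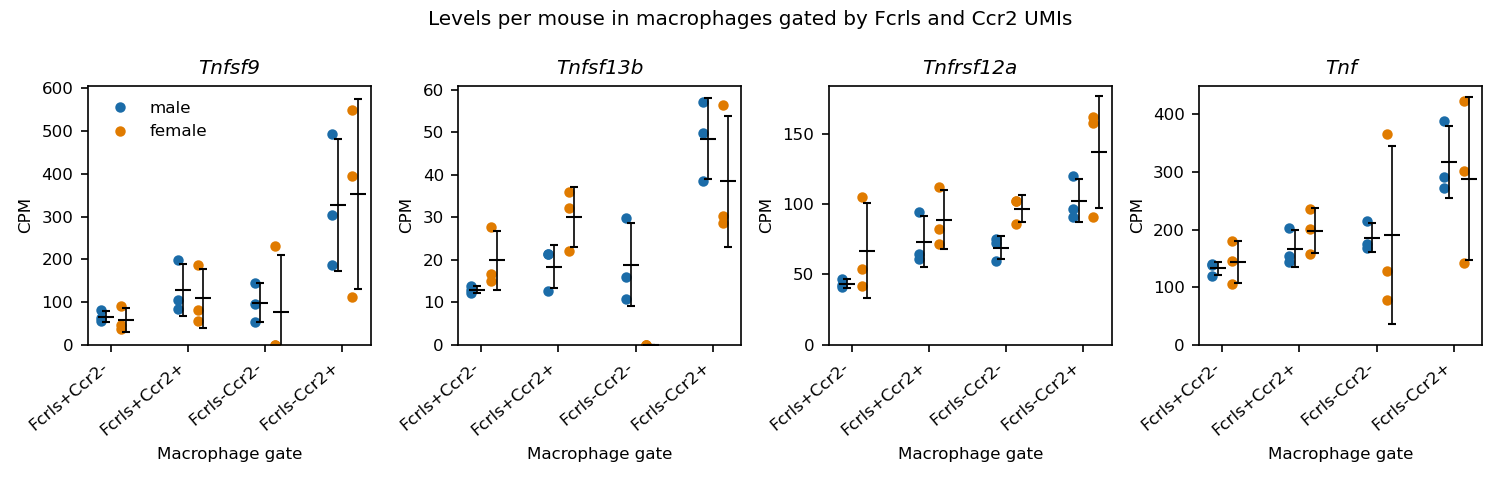
CPM of Tnfsf9, Tnfsf13b, Tnfrsf12a and Tnf in the 4 macrophage gates, with 1 point per male (blue) or female (orange) mouse and black bars for mean ± SD (n = 3). In male mice the Fcrls-Ccr2+ points lay above all Fcrls+Ccr2- points for the 4 genes (for Tnfsf9 187 to 492 against 55.3 to 80.4 CPM).

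Genes that rise during tissue dissociation moved the other way between the subsets. The 12 such genes, immediate early genes among them and chosen after the values were seen, made up 1.81% ± 0.539 of UMIs in Fcrls+Ccr2- and 1.17% ± 0.0721 in Fcrls-Ccr2+ macrophages. Mitochondrial genes took 2.00% ± 0.0846 and 1.81% ± 0.0813, and the median depth was 8483.5 and 7999.5 UMIs per cell. B cell markers stood at 0.0313 to 0.0379% and 0.0269 to 0.0365% of UMIs and monocyte markers, Ccr2 among them, at 0.00412 to 0.00760% and 0.0703 to 0.0813%. Endothelial markers, among them Egfl7, took 0.0114 to 0.0196% in Fcrls+Ccr2- and 0.000529 to 0.00144% in Fcrls-Ccr2+ macrophages, and fibroblast markers 0.00565 to 0.0159% and 0.00317 to 0.00567%. The part of these differences in the results was not tested.

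In female mice the same members pointed the same way but none was called. The test took 9 members and 4026 genes, with 0 members called (2 at an unadjusted p under 0.05) against 8.37% of all genes (3.78% higher and 4.60% lower). Tnfsf9 was at 90.7, 37.1 and 45.2 CPM in Fcrls+Ccr2- and at 549, 111 and 395 CPM in Fcrls-Ccr2+ macrophages (log2 fold change -2.69, SE 0.64, adjusted p = 0.0996), and the groups did not overlap. Tnfrsf12a had 67.0 ± 33.8 and 137 ± 40.0 CPM with overlap (-1.11, SE 0.37, adjusted p = 0.0853). With the mouse as a block both were called, with adjusted p = 1.05e-20 for Tnfsf9 and 0.00411 for Tnfrsf12a. In male mice the same block gave Tnfsf9 an adjusted p of 1.54e-12. Over all genes tested, sums of the same female mouse deviated together only weakly, with correlations of 0.093, 0.028 and -0.011. These correlations do not describe Tnfsf9 itself, for which female mouse 1 was highest and mouse 2 lowest in both gates. Why the block lowered the adjusted p of Tnfsf9 so far was not tested, and with 3 mice it is no measure of strength. Tnfsf13b did not pass the filter there, with 27.8, 16.7 and 15.1 CPM against 56.3, 30.3 and 28.7 CPM, each from 3 to 19 UMIs. A test of the difference between the sexes in the subset contrast called 0 of 6214 genes (245 at an unadjusted p under 0.05), and 0 of 13 members had an unadjusted p under 0.05. Between female and male macrophages as a whole 0 of 15 members were called, against 0.0618% of 8092 genes (0.0247% higher and 0.0371% lower in female mice).

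Each other class was then tested against the macrophages, all of which share the same macrophage samples, and 6072 genes and 19 members entered each test. Tnfsf11 and Fasl were among these 19 although their counts were 0 in both groups of several tests. They passed the filter on low counts through T and NK cells alone. Tnfrsf25 and Tnfrsf18 also passed it only with T and NK cells, and Tnfrsf13c and Cd40 only with B cells. Tnfsf13b passed it only with neutrophils, Ltbr and Tnfrsf21 only with monocytes and Tnfrsf11a only with macrophages. Calls that set these members higher in those classes, or Tnfrsf11a lower than in macrophages, are therefore a description and no support. Without the TMM factors the share of higher calls among all called genes moved from 47.9 to 68.0% for monocytes, from 47.0 to 24.6% for neutrophils, from 43.7 to 68.9% for B cells and from 44.6 to 69.2% for T and NK cells, and no called member changed sign. The median log2 fold change of all genes then shifted by 0.27, -0.68, 0.54 and 0.49 in these 4 tests.

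Monocytes, the blood cells that enter tissue and can become macrophages, had more of Ltb, Fas and Tnfrsf1b (TNF receptor 2) and less of RANK than macrophages. Of the 19 members 6 were higher and 5 lower, against 38.4% of all genes called (18.4% higher and 20% lower). Tnfrsf11a (RANK) fell from 79.5, 92.0 and 66.1 CPM in macrophages to 8.34, 20.6 and 6.49 CPM in monocytes (log2 fold change -3.03, SE 0.38, adjusted p = 8.72e-09). Ltb was at 77.8, 67.0 and 97.4 CPM in monocytes and at 12.8, 11.7 and 10.2 CPM in macrophages (2.91, SE 0.25, adjusted p = 2.43e-13). Fas, the death receptor, had 19.5, 15.5 and 43.8 CPM in monocytes and 8.52, 4.67 and 8.15 CPM in macrophages (2.10, SE 0.39, adjusted p = 2.04e-05), and for these 3 genes no mouse overlapped. The ligand Tnfsf9 was lower in monocytes, with 50.02, 10.3 and 22.7 CPM against 149, 150 and 92.2 CPM (-2.13, SE 0.37, adjusted p = 8.14e-05), but with broader clusters its log2 fold change was -0.46 (adjusted p = 0.172).

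Tnfrsf1b, Ltbr, Tnfrsf21 and Tnfrsf1a were the other members higher in monocytes, by 0.57 to 1.01 on the log2 scale. Tnfrsf21 passed narrowly (adjusted p = 0.0499) and did not with the mouse as a block (adjusted p = 0.0516). Ltbr (adjusted p = 0.0399) and Tnfrsf21 were lost without any 1 of the 3 mice, in DESeq2 and with every gene with a UMI, and Tnfrsf1a was lost without mouse 1 and with broader clusters. Fas was not tested without mouse 3. Tnfsf12, Tnfsf13b and Tnfrsf12a were the other members lower, with log2 fold changes of -1.49, -1.33 and -1.26. The call of Tnfsf13b was lost without mouse 1, without mouse 2 and without TMM factors (-1.07, adjusted p = 0.0930). Without mouse 1 or without mouse 3 the members called higher were 3. Neutrophil markers took 0.119 to 1.60% of the UMIs of the monocytes of the 3 mice, and their part in these levels was not tested.

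DCs, the antigen-presenting cells, stood out by GITR and the BAFF receptor. In the test 3 members were higher and 3 lower, against 34.9% of all genes (17.4% higher and 17.5% lower). Tnfrsf18 (GITR, a costimulatory receptor of T cells) had 19.5, 33.9 and 34.9 CPM in DCs and 0, 1.46 and 0.437 CPM in macrophages (log2 fold change 5.26, SE 0.54, adjusted p = 5.46e-11). Tnfrsf13c, the BAFF receptor, had 35.1, 16.9 and 16.6 CPM in DCs against 1.42, 2.34 and 0.728 CPM (3.88, SE 0.54, adjusted p = 1.56e-07), from 25 and 15 UMIs. Neither gene overlapped between the classes, and the DCs of female mice held 16.7 ± 8.73 CPM of Tnfrsf18 and 23.7 ± 5.68 CPM of Tnfrsf13c. B cell markers were at 0.00927 to 0.0124% of the UMIs of DCs, and a UMI of such a marker was found in 1 of the 17 DCs with Tnfrsf13c and in 3 of the 83 without it. For Tnfrsf18 a UMI of a B cell marker was in 2 of the 30 DCs with it and in 2 of the 70 without it. Tnfrsf18 was highest in T and NK cells, whose markers were not counted per cell, so this count does not speak to transcripts of that class. T and NK cell markers took 0.00232 to 0.00449% of UMIs of DCs.

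Ltb was the third member higher in DCs, at 58.5, 53.6 and 56.5 CPM (log2 fold change 2.32, SE 0.27, adjusted p = 1.42e-09), though with finer clusters the value was 1.05 (adjusted p = 0.0513). Tnfrsf11a had 15.6, 19.8 and 11.6 CPM in DCs, below all macrophage samples (-2.39, SE 0.34, adjusted p = 1.26e-07). Cd27 and Tnfsf12 were also lower, with log2 fold changes of -1.97 and -1.59, and the call of Cd27, from 5 UMIs, was lost with broader and with finer clusters, as was that of Ltb with finer ones. Tnfsf9 had 222, 93.1 and 153 CPM in DCs (0.25, SE 0.26, adjusted p = 0.518). With finer clusters 51 of these cells stayed in a cluster named as DCs, and 49 fell in clusters that were not named as DCs. The 51 and the 49 cells had unequal levels, with 73.3 ± 42.5 and 230 ± 94.3 CPM of Tnfsf9 and 28.2 ± 8.73 and 84.8 ± 5.53 CPM of Ltb. In the same order Tnfsf12 had 12.8 ± 3.94 and 74.7 ± 27.8 CPM and Tnfrsf13c 43.5 ± 33.4 and 10.7 ± 3.07 CPM. The DC levels average over both sets.

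Neutrophils carried much Ltb and BAFF and hardly any CD40, 4-1BB ligand, RANK or TWEAK. Of the 19 members 5 were higher and 8 lower, in a test that called 70.7% of all genes (33.2% higher and 37.5% lower). Ltb reached 427, 425 and 477 CPM from 1185 UMIs, far above each macrophage sample (log2 fold change 5.30, SE 0.19, adjusted p = 3.94e-26). Cd40, the receptor that takes help from T cells, had 0 UMIs in 565 neutrophils and 235 in macrophages, which is at least 17.4-fold lower with a floor of 3 counts over the group. Tnfsf9 fell to 1.39, 2.53 and 1.34 CPM (4 UMIs, log2 fold change -6.27, SE 0.53, adjusted p = 8.82e-10). Tnfrsf11a was at 0, 0 and 2.69 CPM (4 UMIs, -5.58, SE 0.43, adjusted p = 1.70e-15).

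The other members higher in neutrophils were Fas (57.7 ± 14.1 CPM, log2 fold change 3.00), Tnfrsf18 (2.86, from 15 UMIs), Tnfsf13b (90.2 ± 19.3 CPM, 2.09) and Tnfrsf1a (238 ± 22.0 CPM, 1.14). For Tnfsf13b this was more than in any other class, 4.26-fold the level in macrophages. Without TMM factors it stayed highest in neutrophils, at 51.75 CPM against 18.51 CPM in macrophages, with a log2 fold change of 1.42. Tnfsf12 had 5.02 ± 2.42 CPM (-4.69), and Tnfrsf12a, Tnfrsf13b, Cd27 and Tnfrsf21 were lower by smaller amounts, with values of -2.44, -2.30, -0.70 and -0.58. Tnfrsf21 did not pass with the mouse as a block (adjusted p = 0.0598) or without any 1 of the mice, and Cd27 (adjusted p = 0.0488) did not pass without mouse 2, without mouse 3 or in DESeq2. On total UMIs without TMM factors Tnfrsf1a had 136 ± 11.4 CPM in neutrophils and 175 ± 16.4 CPM in monocytes, whereas with them it had 238 and 162 CPM. Ltbr (log2 fold change -0.68, adjusted p = 0.0144) and Tnfrsf1b (-0.90, adjusted p = 0.000621) were called lower in neutrophils only without TMM factors. Without the cluster of neutrophil precursors, an alternative added after seeing the data, 5 members were higher and 6 lower.

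B cells showed the receptors of BAFF and CD40 and none of BAFF itself. In all 5 members were higher and 9 lower, against 47.6% of all genes (20.8% higher and 26.8% lower). The 5 include Tnfrsf13c and Cd40, which entered the test only through their counts in this class. Tnfrsf13c was at 472, 682 and 660 CPM in B cells from 353 UMIs, and 80.4% of all its UMIs in male mice lay there (log2 fold change 8.73, SE 0.30, adjusted p = 1.22e-25). Tnfsf13b had 0 UMIs in B cells and 253 in macrophages, at least 4.17-fold lower at this depth. Tnfrsf1a (TNF receptor 1) had 1 UMI in B cells and 1262 in macrophages, a ratio of 0.0160 (95% counting interval 0.000406 to 0.0895). Tnfsf12 had 2 UMIs and a ratio of 0.0281 (0.00340 to 0.102). Intervals and floors cover counting error only.

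Ltb (283 ± 94.3 CPM, log2 fold change 4.70), Cd40 (102 ± 16.3 CPM, 2.43), Cd27 (85.7 ± 6.06 CPM, 2.38) and Tnfrsf13b (154 ± 48.3 CPM, 1.49) were the other members higher in B cells. Tnfrsf12a and Tnfsf9 were lower, with log2 fold changes of -2.47 and -3.87, and Tnfrsf1b was lower from 4 UMIs. Ltbr, Tnfrsf11a and Tnfrsf21 were called lower from 1, 2 and 3 UMIs in B cells, and Tnfrsf21 was not without mouse 3. Tnfrsf18 was called higher with the mouse as a block (adjusted p = 0.0434) and not without it (adjusted p = 0.0690), from 3 UMIs. Tnfrsf19, a receptor with no TNF superfamily partner here, had 22.0 CPM in B cells from 12 of its 33 UMIs. Most of the other UMIs of Tnfrsf19 lay in the unnamed clusters, which entered no comparison. It did not pass the filter of the main test, and was called in B cells with every gene with a UMI.

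T and NK cells held nearly all UMIs of 3 ligands, RANK ligand, Fas ligand and CD40 ligand. The test gave 7 higher and 10 lower members, against 47.1% of all genes (21.0% higher and 26.1% lower). The 7 include Tnfsf11, Fasl, Tnfrsf25 and Tnfrsf18, which entered the test only through their counts in this class. Tnfsf11 (RANK ligand) was at 153, 31.6 and 114 CPM from 78 UMIs in 27 cells, with 0 UMIs in the 5 other classes, at least 392-fold higher than in macrophages. The call of Tnfsf11 was lost in DESeq2 (adjusted p = 0.0734), and in edgeR's quasi-likelihood test its adjusted p was 4.88e-06. Fasl had 69.0, 67.7 and 88.1 CPM from 60 UMIs, at least 301-fold higher than in macrophages, which had none. Tnfrsf18 was at 78.9, 226 and 179 CPM (log2 fold change 7.66, SE 0.40, adjusted p = 1.63e-20). Tnfsf13b had 0 UMIs in T and NK cells, at least 5.59-fold lower than in macrophages.

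Ltb had its highest level in this class, at 631, 921 and 719 CPM (log2 fold change 6.07), and Tnfrsf25 (death receptor 3, 5.61), Cd27 (3.29) and Tnfrsf13c (2.21, from 5 UMIs in 3 cells, with 1 mouse at 0 and the call lost without mouse 1 and with finer clusters) were also higher. Cd40 had 0 UMIs and was at least 5.20-fold lower. Tnfrsf1a (-1.86), Tnfrsf12a (-1.71), Tnfrsf13b (-2.12), Tnfsf12 (-3.96) and Tnfsf9 (-3.46) were lower on the log2 scale, and Ltbr, Tnfrsf21 and Tnfrsf11a had 1, 1 and 3 UMIs. Markers of mast cells and basophils took 0.00102 to 0.195% of the UMIs of this class, and their part in these levels was not tested. Cd40lg lay in T and NK cells with all of its 32 UMIs, at 4.93, 27.1 and 71.1 CPM, but in only 10 cells.

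Set side by side, ligands and receptors lay in different classes for several pairs. BAFF (Tnfsf13b) was found in neutrophils (90.2 CPM), macrophages (21.0), DCs (15.1) and monocytes (6.18) and had 0 UMIs in lymphocytes, whereas its receptor Tnfrsf13c was at 605 CPM in B cells and at most 22.9 CPM elsewhere. This does not hold for its other receptors, described below. Tnfrsf13b was also found in macrophages, DCs and monocytes, and 97.5% of the UMIs of Tnfrsf17 lay in macrophages. RANK ligand (Tnfsf11) was seen in T and NK cells, and 91.8% of the UMIs of its receptor Tnfrsf11a lay in macrophages. Such shares are to be read beside the 13116758 of all 23403638 UMIs that macrophages held. Fas ligand was seen in T and NK cells (75.0 CPM), with 1 further UMI in neutrophils, while Fas was at 57.7 CPM in neutrophils, 26.2 in monocytes, 7.11 in macrophages and 13.1 in the T and NK cells themselves. CD40 ligand was in T and NK cells, which had 0 UMIs of Cd40, and Cd40 was at 102 CPM in B cells and at 18.01 to 23.3 CPM in macrophages, DCs and monocytes.

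Other pairs shared a class. TWEAK and Fn14 (Tnfsf12 and Tnfrsf12a) both had their highest level in the macrophages of male mice, at 122 ± 2.07 and 69.5 ± 13.003 CPM. Of their UMIs 88.8% and 77.4% lay there, where 13116758 of the 23403638 UMIs of all genes lay too. In female mice Tnfrsf12a was at 88.1 ± 28.9 CPM in macrophages and 92.2 ± 24.9 CPM in DCs, with overlap. Ltb was high in T and NK cells, neutrophils and B cells (757, 443 and 283 CPM). Ltbr was high in monocytes, macrophages and neutrophils (42.7, 23.9 and 22.9 CPM). Neutrophils held both, as did monocytes and DCs with less Ltb, and lymphocytes had 1 UMI of Ltbr per class. On total UMIs without TMM factors Ltbr was at 46.16 CPM in monocytes, 21.05 in macrophages, 16.73 in DCs and 13.03 in neutrophils. Ltb was then at 931.4 CPM in T and NK cells, 86.79 CPM in monocytes and 51.87 CPM in DCs. Its mean was then higher in B cells (361.2 ± 114.3 CPM) than in neutrophils (253 ± 5.224 CPM), the reverse of the order with TMM factors. Tnf was at 185 ± 22.4 CPM in macrophages and 153 ± 13.2 CPM in neutrophils, and Tnfrsf1a at 109 ± 3.14 and 238 ± 22.0 CPM in the same classes. Tnfrsf1b, the second TNF receptor, was highest in monocytes at 84.7 CPM. Lta, which shares these receptors, had 16 UMIs, 9 of them in T and NK cells.

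For a further set the partner was barely measured. Tnfsf9 was at 130 CPM in macrophages and 156 CPM in DCs, and its receptor Tnfrsf9 (4-1BB) had 13 UMIs in all, of which 9 were in T and NK cells. Tnfrsf18 was in T and NK cells and DCs, and its ligand Tnfsf18 had 7 UMIs. Tnfrsf25 was in T and NK cells (35.7 CPM), and its ligand Tnfsf15 had 3 UMIs, all in DCs. Cd27 was at 164 CPM in T and NK cells and 85.7 CPM in B cells, with its ligand Cd70 not analysed here. Tnfsf10 (TRAIL) had 68 UMIs and its receptor Tnfrsf10b 13, with 50 and 17 UMIs for Tnfrsf23 and Tnfrsf22, which have no working death domain. Tnfsf14 (LIGHT, 45 UMIs) had 9.47 CPM in neutrophils and 20.1 CPM in T and NK cells. Its receptor Tnfrsf14 had 122 UMIs and at most 10.4 CPM in any class. The other receptor of LIGHT, Ltbr, set beside Ltb above, was better measured, with 444 UMIs. Tnfsf8 had 26 UMIs and its receptor Tnfrsf8 (CD30) 1.

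**Figure D3:**
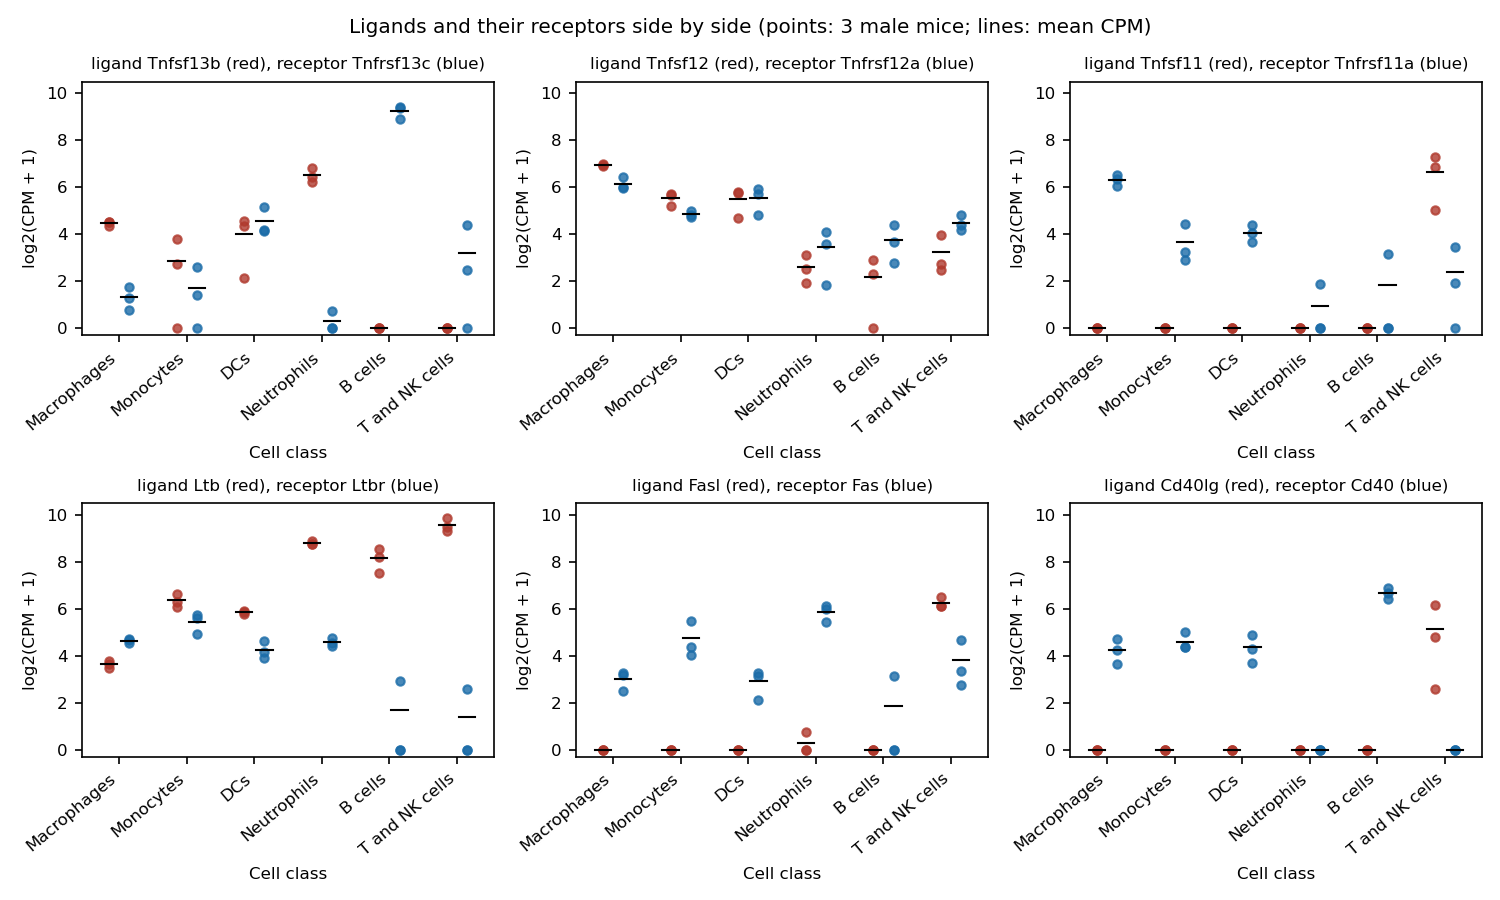
Levels as log2(CPM + 1) of 6 ligands (red, left) and their receptors (blue, right) in 6 cell classes, with 1 point per male mouse and a line at the mean CPM. Tnfsf13b was at 90.2 CPM in neutrophils and at 0 in B cells, where Tnfrsf13c was at 605 CPM, whereas Tnfsf12 and Tnfrsf12a were both highest in macrophages of these male mice.

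Tnfrsf17 encodes BCMA, a receptor for BAFF and APRIL that is best known from plasma cells (chr16:11313812-11320074, + strand), yet its UMIs lay in macrophages. Macrophages had 24.8, 22.8 and 11.6 CPM, with 193 of the 198 UMIs (97.5%), in 165 of 1489 cells. Among the other classes, B cells had 2 UMIs in 1 of 135 cells, T and NK cells had 1 UMI, and monocytes, DCs and 565 neutrophils had 0, which limits the cells with a captured UMI and not the cells that express the gene. With each cell thinned to 2000 UMIs, a step that left out 39 macrophages and 11 B cells, Tnfrsf17 was found in 3.94% ± 0.809 of macrophages (11.8% ± 2.32 before thinning) and in 0% of B cells (0.538% ± 0.931). A UMI of a B cell marker was in 24.9% of macrophages with Tnfrsf17 and 21.1% of those without. In female mice macrophages had 21.7 ± 2.22 CPM and all of its 86 UMIs. The gene did not pass the filter of the main test between classes. With every gene with a UMI in place of the filter, it was called against macrophages in monocytes, DCs, neutrophils, B cells and T and NK cells.

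Tnfrsf13b (TACI), the other shared receptor of BAFF and APRIL, was not limited to B cells either. It was highest there (112, 144 and 207 CPM), followed by DCs (39.0, 53.6 and 89.8), macrophages (58.2, 63.4 and 50.4) and monocytes (52.8, 61.9 and 47.1), and the last 3 classes overlapped. Neutrophils and T and NK cells had 11.3 and 14.1 CPM. Gm12269 overlaps this gene on the opposite strand. The third BAFF receptor, Tnfrsf13c, had 1.49 CPM in macrophages.

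Levels also differed among clusters within a class, and these differences are descriptions with no test. Across the neutrophil clusters, from cluster 11 with precursor genes (Elane, Fcnb, 64 cells) through cluster 3 (Ly6g, Mmp8, 235 cells) to cluster 2 (Asprv1, Acod1, 266 cells), Ltb was at 86.3 ± 35.5, 361 ± 117 and 1068 ± 117 CPM without overlap. Fas went from 5.73 ± 5.07 over 40.7 ± 1.27 to 157 ± 28.8 CPM and Tnfrsf1a from 121 ± 20.6 over 245 ± 67.4 to 384 ± 40.1 CPM, both also without overlap. Tnfrsf1b had 3.41 ± 3.62, 19.96 ± 12.6 and 91.1 ± 27.9 CPM, with overlap between the first 2 clusters. Tnfsf13b did not follow this order, with 72.3 ± 25.7, 119 ± 25.0 and 62.7 ± 9.43 CPM. Median depth fell in the same direction, from 20297 over 10045 to 3185.5 UMIs per cell, and its part in the pattern was not tested.

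Among macrophages, the 94 cells of cluster 9 were led by interferon-response genes (Ifit2, Ifit3, Rsad2). Cd40 was at 60.5, 43.6 and 146 CPM there, above the 3.51 to 10.1 CPM of cluster 0 and the 14.4 to 24.9 CPM of cluster 1. Tnfsf10 was at 60.5, 36.3 and 44.5 CPM in cluster 9 and at no more than 6.73 CPM in clusters 0 and 1. Mouse 1 gave 5 of the 94 cells and mouse 3 gave 68. Tnfsf9 and Tnfrsf12a were higher in cluster 1 (206 ± 75.2 and 101 ± 25.7 CPM) than in cluster 0 (48.4 ± 7.64 and 37.3 ± 7.53 CPM), and Tnfrsf17 had 27.6 ± 8.85 CPM in cluster 0 and 11.7 ± 4.23 CPM in cluster 1.

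**Figure D4:**
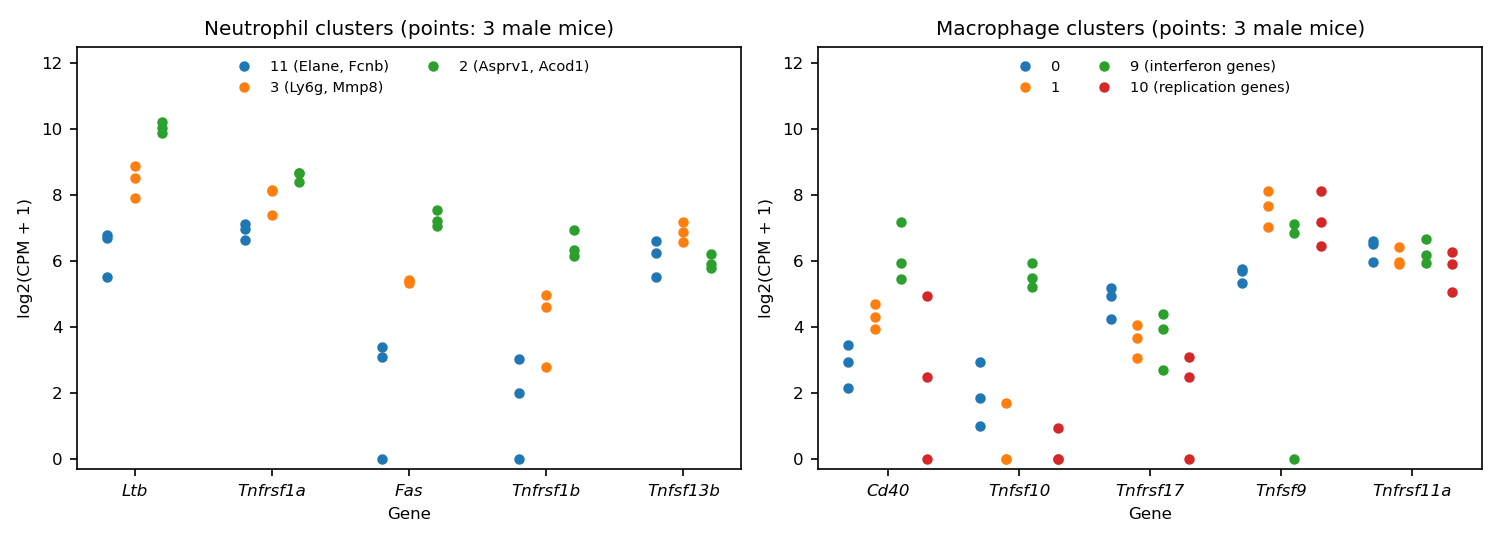
Levels as log2(CPM + 1) of 5 members in the neutrophil clusters 11, 3 and 2 (left) and of 5 members in the macrophage clusters 0, 1, 9 and 10 (right), with 1 point per male mouse. Ltb rose from a mean of 86.3 to 1068 CPM over the neutrophil clusters, and Tnfsf10 stood at 36.3 to 60.5 CPM in macrophage cluster 9.

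Genes that carry the signal below the receptors were followed in a list of 31 adaptors, kinases and NF-κB proteins. Between the macrophage subsets 23 were tested, 0 were higher and 1 was lower in Fcrls+Ccr2- cells, Nfkb1 (log2 fold change -0.52, SE 0.16, adjusted p = 0.0447), which is 4.35% of the list beside 10.3% of all genes. The adaptor Traf1 had a value of -0.93 (SE 0.37, adjusted p = 0.132), Sharpin -0.89 (SE 0.32, adjusted p = 0.0884), Nfkb2 -0.72 (SE 0.25, adjusted p = 0.0742) and the deubiquitinase Cyld 0.57 (SE 0.29, adjusted p = 0.268). In female mice 18 were tested, of which Traf1 was lower (-1.66, adjusted p = 0.0384) and Tnfaip3 (A20, an inhibitor of NF-κB) higher (0.72, adjusted p = 0.00962), 11.1% of the list beside 8.37% of all genes. Between the sexes 0 of 29 were called.

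Against macrophages 24 of these genes were tested in each class. Monocytes had 1 higher (Ikbkb, 0.93) and 6 lower, Birc2, Tnfaip3 and Cflar with -1.36, -1.21 and -1.15. DCs had 8 higher and 6 lower, with 3.25 for Traf1, 1.68 for Chuk, -1.44 for Cflar, which blocks caspase-8, and -1.09 for Tnfaip3. Neutrophils had 2 higher and 15 lower, the largest values being -2.13 for Traf5, -1.99 for Traf1, -1.69 for Tnfaip3 and -1.64 for Map3k14, the kinase of the alternative NF-κB route. B cells had 3 higher and 9 lower, with -3.07 for Tnfaip3, -2.24 for Cflar, -1.97 for Ripk1 and -1.82 for Nfkbia. T and NK cells had 6 higher and 10 lower, with 2.16 for Traf1 and -1.87, -1.77 and -1.75 for Birc3, Tank and Rel. The called shares of 29.2, 58.3, 70.8, 50 and 66.7% stand beside 38.4, 34.9, 70.7, 47.6 and 47.1% of all genes in these 5 tests.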

How the data were processed

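The authors deposited raw UMI counts per gene and cell, made with Cell Ranger, Seurat and the mm10 build per the submitters' processing notes. Counts were left as deposited. Cells with 200 to 5000 genes and under 5% mitochondrial counts were kept, hashtags were demultiplexed, and of 3741 singlets those of male mice were clustered at resolution 0.5 with Seurat 5.3.0 after the members were left out (11 cells, 0.412%, were marked as doublets by Scrublet in scanpy 1.11.5, too few for the caller to be relied on). The rule that named clusters from marker lists was written after the clusters were seen.

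Counts were summed per mouse and class or gate and tested with edgeR 4.0.16 (filterByExpr, TMM, quasi-likelihood test, Benjamini-Hochberg adjusted p under 0.05, R 4.3.3), and the test was checked on simulated data. DESeq2 1.42.0, other scalings, filters, resolutions and gates and leaving out mice were alternatives. The members and lists were chosen with earlier results of these data known. Members with at least 20 UMIs are given with levels, except Tnfrsf23, Tnfsf8, Tnfrsf26 and Tnfsf13os. Tnfrsf26 had 37 UMIs, 11 of them in neutrophils and 4 in T and NK cells. Tnfsf13os had 46 UMIs, 20 of them in monocytes. Full values are given for the members called between the subsets and for the 4 largest log2 fold changes per class. Sums with the same number came from the same mouse by its hashtag. In male mice their deviations over all genes tested correlated by 0.044, 0.068 and 0.185 between subsets and by 0.005 to 0.023 between classes. A single gene can differ from this.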

Additional observations from a re-analysis of the deposited data

Results flagged for a closer look

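Tnfrsf12a (Fn14) had 30 UMIs in the unnamed cluster of 28 cells, which entered no comparison and in which 5 fibroblast and 5 Schwann or satellite glia markers were raised. The level there was 71.6, 122 and 72.2 CPM in the 3 male mice, and 84.4, 62.8 and 61.2 CPM in macrophages. It was noted because the cells lie outside the classes compared, and the difference was not tested.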

How the results depend on the processing

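With 3 mice per group, the number of genes called depended on each mouse. Between the macrophage subsets 602 genes were called and 329 to 431 with 1 mouse left out, and in female mice 337 and 126 to 212. Members lower in the female subset test were 0, against 1 with every gene with a UMI, 1 in DESeq2, 2 with the mouse as a block and 0 to 2 with 1 mouse left out. Members higher in monocytes were 6, and 3 to 4 with 1 mouse left out. With every gene with a UMI in place of the filter, 6 members were higher and 5 lower in DCs, 14 members were higher in T and NK cells, 6908 genes were called in neutrophils (4290 with the filter) and 49 genes between the sexes. The last count was 5 with the filter, 10 in DESeq2 and 5 to 43 with 1 mouse left out.

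Between the subsets the log2 fold change stayed below 0 over all 15 settings for Tnfsf9 (-2.46 to -1.66), Tnfsf13b (-2.02 to -0.88) and Tnfrsf12a (-1.28 to -0.93), and the last 2 were called in each. Tnfsf9 was not called without mouse 2 or with subsets taken as clusters. Cd40 and Ltb, which were not in the main test of the subsets, were called lower in some of these settings. The settings without TMM factors, with the 2 largest macrophage clusters only and without the neutrophil precursors were chosen after seeing the data. With the mouse as a replicate block, calls changed for Tnfrsf21 in monocytes and neutrophils, Tnfrsf18 in B cells and Tnfsf9 and Tnfrsf12a in female subsets, and for no other member. Of the named genes' values 289 kept their direction and side of the threshold, 5 lost and 10 gained a call, and 0 reversed. The cause of these changes was not tested. Depth limits members with few UMIs, and a count of 0 in 135 B cells or 139 T and NK cells bounds a level only as far as the floor of 3 counts.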
